A study of Mus musculus with 6 samples.

Results

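The cells described here are 73 mast cell barcodes among 64032 droplet barcodes from mouse tibialis anterior, a muscle of the shin. They were chosen by the summed raw counts of 4 mast cell genes, Mcpt4, Cma1, Tpsb2 and Cpa3. A barcode, the tag that marks the RNA of 1 droplet, entered with at least 5 UMIs of these genes (a UMI is 1 counted transcript molecule). It also needed at least 500 UMIs, at least 200 genes and at most 10% mitochondrial UMIs. No droplets were left out as likely doublets, that is, droplets with more than 1 cell. The 4 genes picked the barcodes, so their levels are a description and test nothing.

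Mast cells are tissue-resident granulocytes that mature outside the blood under the growth factor Kit ligand. Their granules hold histamine, serotonin, heparin and large amounts of a few proteases, bound to the proteoglycan serglycin. Crosslinked IgE on the receptor FcεRI, or cationic ligands on a Mrgpr receptor, release the granules and start synthesis of cytokines and lipid mediators. In mouse connective tissue the granule proteases are chymases (mast cell protease 4 from Mcpt4 and mast cell protease 5 from Cma1), tryptases (Tpsb2, Tpsab1) and carboxypeptidase A3 (Cpa3). Basophils, their relatives in blood, share FcεRI and histamine synthesis and carry the protease gene Mcpt8.

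Cells came from wild-type mice whose muscle was injured with cardiotoxin, a venom toxin that destroys muscle fibres, and was taken on day 1 or day 3, or was uninjured (day 0). Both hindlimbs gave muscle, dead cells were sorted away by their propidium iodide stain, and single-cell 3′ libraries were made for each day at zeitgeber time 4 (ZT4) and 16 (ZT16), in hours from lights on. The labels give no age or sex and no number of animals. Each of the 6 groups is 1 library, so no group has a replicate. Collection times were pooled and no test was run, since libraries of a day differ in collection time and the members were chosen by their own counts. Intervals in brackets are exact 95% limits for counting error only. Library totals lay between 72747703 and 132221721 UMIs. Pairs of libraries shared 20 to 60 kept barcodes, none of them in 2 sets of members, and 1 member barcode recurred among the other barcodes of another library.

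The promoters of 3 of the chosen genes and of both specific FcεRI chains are shown because they give the stretch before the genes that chose the barcodes and before the IgE receptor that mast cells are known for. The letters are the 250 bases before each start in RefSeq (GRCm38.p6, all on the minus strand), printed 5′ to 3′ along the gene, at chr14:56062311-56062560 for Mcpt4, chr14:55944676-55944925 for Cma1, chr3:20242182-20242431 for Cpa3, chr1:173227230-173227479 for Fcer1a and chr19:11623720-11623969 for Ms4a2. Capitals mark GATAA, or TTATC for the same letters on the other strand, a core of the motif that GATA factors bind.
Mcpt4: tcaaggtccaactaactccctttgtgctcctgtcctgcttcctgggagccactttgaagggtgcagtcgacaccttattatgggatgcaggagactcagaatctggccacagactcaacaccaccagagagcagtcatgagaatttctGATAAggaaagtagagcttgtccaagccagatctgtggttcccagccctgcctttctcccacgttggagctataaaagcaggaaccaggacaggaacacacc
Cma1: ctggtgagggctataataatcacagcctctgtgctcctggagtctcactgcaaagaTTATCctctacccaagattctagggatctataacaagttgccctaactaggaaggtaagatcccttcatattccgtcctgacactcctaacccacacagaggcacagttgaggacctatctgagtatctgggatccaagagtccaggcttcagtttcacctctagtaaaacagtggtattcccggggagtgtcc
Cpa3: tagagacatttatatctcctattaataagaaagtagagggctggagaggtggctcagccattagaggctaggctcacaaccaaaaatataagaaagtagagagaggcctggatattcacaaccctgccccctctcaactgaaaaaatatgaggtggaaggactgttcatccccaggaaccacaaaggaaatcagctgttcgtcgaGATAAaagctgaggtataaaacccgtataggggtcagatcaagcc
Fcer1a: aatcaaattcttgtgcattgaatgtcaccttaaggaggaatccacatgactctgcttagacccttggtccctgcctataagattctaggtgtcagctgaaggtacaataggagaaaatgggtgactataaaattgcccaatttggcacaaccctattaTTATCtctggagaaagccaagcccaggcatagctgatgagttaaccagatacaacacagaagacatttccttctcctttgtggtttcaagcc
Ms4a2: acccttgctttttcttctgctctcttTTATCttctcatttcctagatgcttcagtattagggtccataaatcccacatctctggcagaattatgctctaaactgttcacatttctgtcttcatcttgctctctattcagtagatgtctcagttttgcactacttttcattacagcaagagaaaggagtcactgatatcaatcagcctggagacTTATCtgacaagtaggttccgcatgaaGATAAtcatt
Each of the 5 held the letters at least once and Ms4a2 held them 3 times. Of the 4 chosen genes and the 25 genes named below as highest, 24 had an entry and 12 held the letters (50%), against 22.6% of all 32851 promoters of this length. The letters describe the window and are not shown to be bound sites.

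The 4 chosen genes divided the barcodes sharply. They had 0 UMIs in 63519 barcodes, 1 or 2 in 430, 3 or 4 in 10, 6 in 1 barcode and 40 in another, while 7 barcodes had at least 50 but under 200, and 64 had 200 or more. No barcode with these genes was lost to the mitochondrial limit. The members held 52636 UMIs of the 4 genes, 10.9% of all their UMIs [10.8, 11.0]. Per barcode that share had a lowest value of 0.171%, a median of 11.3% and a highest value of 22.5%.

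**Figure D1:**
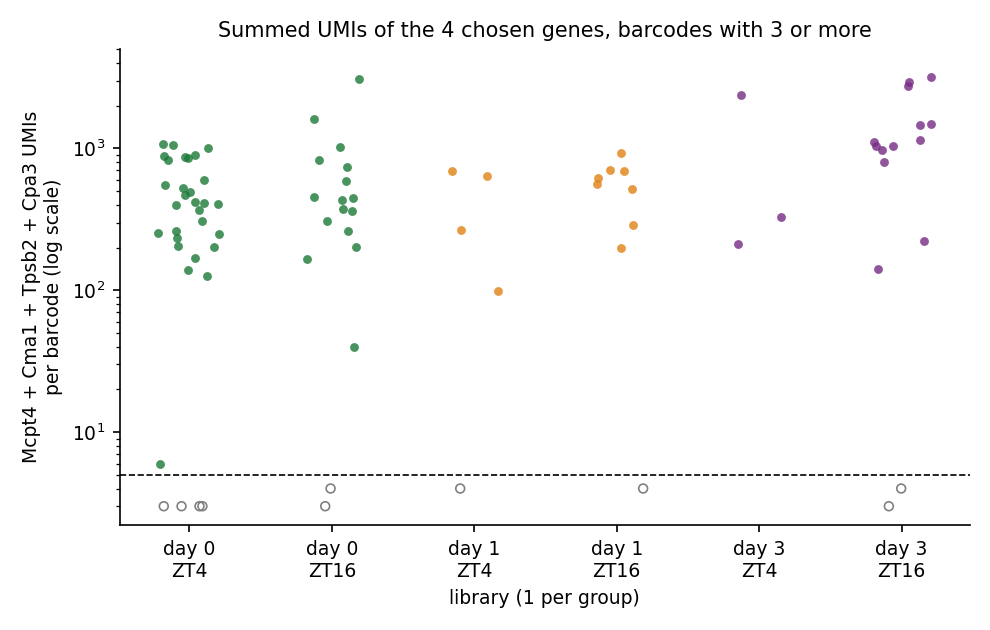
Summed UMIs of Mcpt4, Cma1, Tpsb2 and Cpa3 per barcode (log scale) in each of the 6 libraries, 1 library per group. Filled points are the 73 mast cell barcodes, open points are the 10 barcodes with 3 or 4 UMIs, and the dashed line is the threshold of 5. All but 1 of the filled points lie at 40 or more.

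The barcode just inside the threshold went against its label. It came from the day 0 ZT4 library, had 3517 UMIs, and its 6 UMIs were all Cma1. It had none of Kit, Hdc, Fcer1a, Ms4a2 or Gata2, but 9 UMIs of Nkg7, a granule gene of killer lymphocytes, 6 of Gzmb and 22 of the list of T and NK cell markers. Of the 10 barcodes just outside, 5 had 3 or 4 Cpa3 UMIs and no Mcpt4, Cma1 or Tpsb2. Among these 5, 4 also carried Hdc (28, 13, 9 and 3 UMIs), Gata2 (7, 19, 2 and 2) and Cyp11a1 (4, 4, 2 and 2). The remaining one, from the day 0 ZT16 library, had none of these 3 genes and 8 UMIs of the T and NK list. Mcpt8 was found in 3 of the 5, at 10, 3 and 1 UMIs, and Mrgprb1 in none. Also just outside, in the day 0 ZT4 library, were barcodes with 3 UMIs of Cma1 and none of the other chosen genes. They had 11 and 14 UMIs of Nkg7 and 15 and 24 of the T and NK list. Of the 182 Cma1 UMIs in barcodes outside the members, 64 lay in those with T and NK markers.

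The 73 barcodes came mostly from uninjured muscle. Day 0 gave 45 of them (29 at ZT4, 16 at ZT16), day 1 gave 12 (4 at ZT4, 8 at ZT16) and day 3 gave 16 (3 at ZT4, 13 at ZT16). They made up 0.186% of kept barcodes on day 0 [0.136, 0.249], 0.0540% on day 1 [0.0279, 0.0943] and 0.0906% on day 3 [0.0518, 0.147]. Over barcodes with a UMI of the leukocyte gene Ptprc, members with such a UMI were 22 of 2436 on day 0, 11 of 17996 on day 1 and 13 of 13683 on day 3. Both shares depend on how many other cells were caught, and the second denominator grew with the immune cells of injured muscle. Members had a median of 3855 UMIs on day 0, 6438 on day 1 and 11229 on day 3. The other barcodes had medians of 5098, 4823 and 11291 on the same days.

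Over all members the chymases led the chosen genes. Cma1 stood at 33950 CPM over all members (counts scaled to a common library total), Mcpt4 at 33665, Tpsb2 at 22169 and Cpa3 at 19558, against 0.325, 0.257, 0.134 and 0.146 CPM in the other barcodes. The order was not the same on each day. On day 1 Tpsb2 was highest, at 25743 CPM, and on day 3 Cpa3 was at 22110 CPM, near Mcpt4 at 23134 CPM. Members held 98.9% to 99.3% of all UMIs of each gene. Cma1 was found in 73 members, Cpa3 in 72, Tpsb2 in 69 and Mcpt4 in 68. These genes have close relatives, and the last 500 bases of their transcripts share exact runs of at most 27 bases (Mcpt4 and Cma1) and 23 bases (Tpsb2 and Tpsab1). The read length and the handling of reads that match both are not given in the sources used here, so counts within these pairs carry that uncertainty.

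Genes that the rule did not use told the same barcodes apart. Kit, the receptor for Kit ligand, was found in 70 members, Hdc, the histamine-making enzyme, in 72, and Gata2, a transcription factor of the lineage, in 70. Cyp11a1, a steroid-making enzyme that mast cells and basophils are known to express, and the receptor gene Mrgprb1 were each found in 66, the FcεRI β chain gene Ms4a2 in 63 and the α chain gene Fcer1a in 49. All 7 of these genes were found in 38 members, at least 6 in 62 and at least 3 in 72, and the barcode just inside the threshold had none. With each barcode thinned to 1000 UMIs, which left out 2 members and 2528 others, Kit was found in 64.8% of members [52.5, 75.8] and 0.456% of the others. Hdc was found in 87.3% against 9.30%, Gata2 in 69.0% against 1.40%, Mrgprb1 in 77.5% against 0.0016% and Ms4a2 in 49.3% against 0.0081%. Without thinning the shares were 95.9% against 2.02% for Kit and 98.6% against 13.3% for Hdc. Hdc stood at 2788 CPM in mast cell barcodes, and among the other barcodes it was highest in those with neutrophil markers, at 716 CPM.

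The lineage genes were high in each library singly. Kit stood at 1298 and 1636 CPM in the day 0 members (ZT4, then ZT16), 1880 and 1693 CPM on day 1, and 1010 and 992 CPM on day 3, and at most at 4.45 CPM in the other barcodes of any library. Hdc in members lay between 2197 and 3609 CPM per library, and in the other barcodes it reached 235 CPM in the day 1 ZT4 library. Gata2 in members lay between 1181 and 2246 CPM, and at most at 23.5 CPM in the other barcodes. For these 3 genes the pooled level in each library's members lay above the pooled level in the other barcodes of every library. Single barcodes did overlap, since 3 members had no UMI of Kit, 3 none of Gata2 and 1 none of Hdc. The share of all genes with such an order of pooled levels is not given here.

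For all genes, UMIs in the members were set against the number expected if each library's members had the gene shares of its other barcodes. Of 3096 genes with at least 30 UMIs observed or expected, 18.3% were at least 2-fold higher in members (566 genes) and 19.7% at least 2-fold lower (609 genes). The mast cell lists outside the 4 chosen genes hold 105 genes, of which 104 are in the matrices and 65 reached 30 UMIs. Of these 65, 46 were higher, 8 lower and 11 within 2-fold. But 37 of the 65 were measured only through the members and so could only stand above expectation. Of all 3096 measured genes 704 were measured that way. The count is therefore a description. All these genes were read in the barcodes that the 4 genes chose, so none of the ratios is a test.

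Of the proteases outside the rule 7 of 7 measured genes were higher, but all 7 were measured only through the members and could only stand above expectation. Prss34, mast cell protease 11, which mouse basophils are also known to make, had 600 UMIs in members and 3 in all other barcodes. Tpsab1, a second tryptase, had 538 against 9, and Tpsg1, a membrane-bound tryptase, 137 against 2. The other 4 were found in fewer members. Ctsg, cathepsin G, had 225 UMIs against 90, in 21 members and with 127 in 1 of them. Mcpt8 had 309 against 155, with 82.8% in 2 barcodes and none in the 45 members of day 0. Gzmb, granzyme B, had 504 in 7 members against 3479 in the other barcodes. Mcpt1, a protease of mucosal mast cells, had 255 UMIs, all in 1 barcode, and Mcpt9, of uterine mast cells, had 0. The genes lie in clusters. Within 500 kb on each side of Cma1 on chromosome 14, a window that holds Gzmb, 10 of 59 annotated genes reached 30 UMIs. Called higher were 7 of these 10, against 18.3% of all measured genes. They were Cma1 and Mcpt4, which chose the barcodes, Cma2, Mcpt8, Ctsg, Gzmb and, from its 1 barcode, Mcpt1. In the tryptase region of chromosome 17, 7 of 59 genes reached 30 UMIs and 4 were higher (Prss34, Tpsab1, Tpsg1 and the chosen gene Tpsb2). In the Mrgpr region of chromosome 7, 3 of 14 did so and all 3 were higher. Every higher gene of these 3 regions was measured only through the members and so could only stand above expectation. The counts by region are therefore a description.

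**Figure D2:**
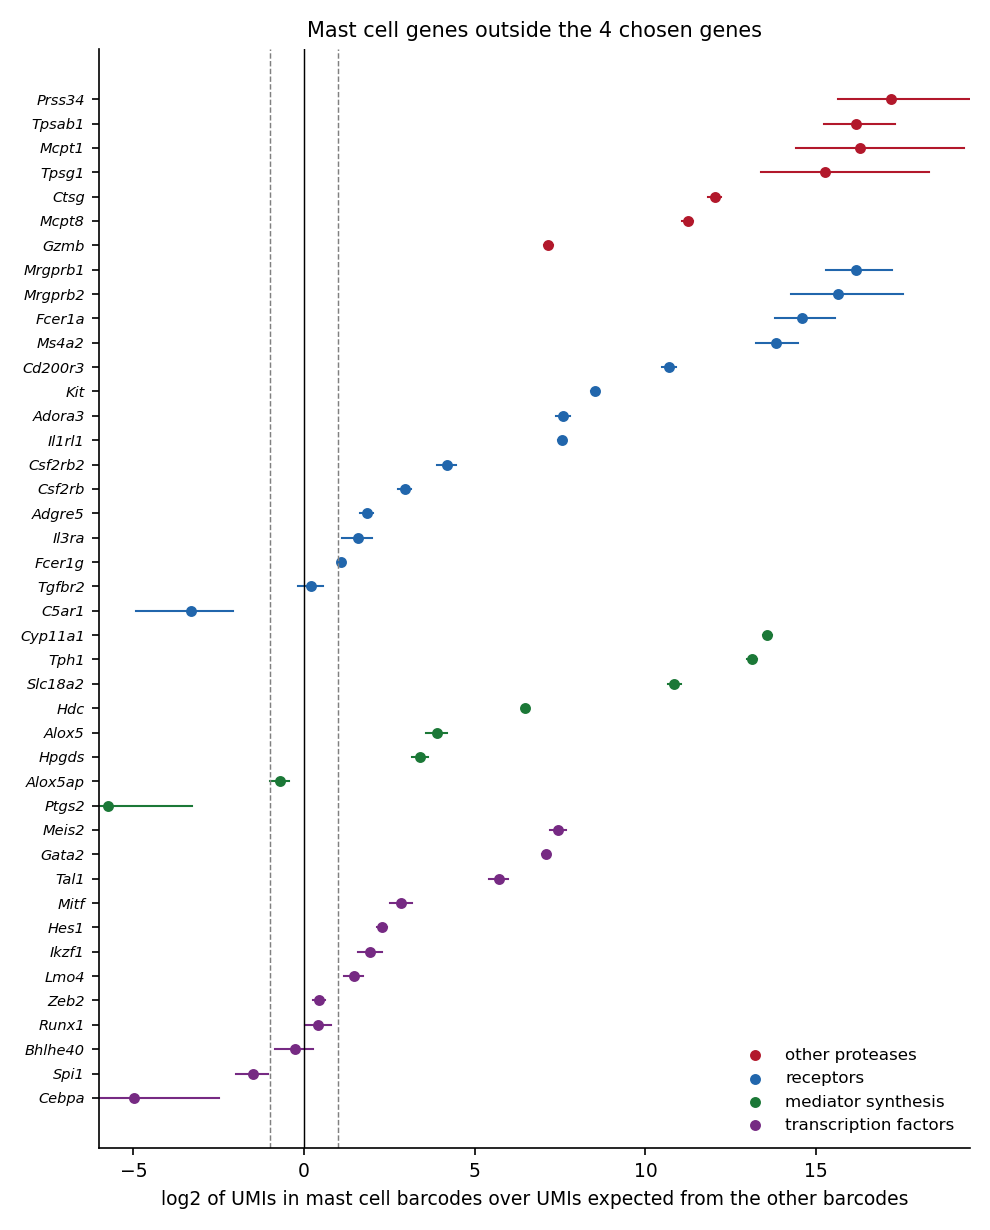
Log2 of the UMIs in mast cell barcodes over the UMIs expected from the other barcodes of the same libraries (x axis) for the measured genes of 4 lists, with exact 95% limits for counting error. Dashed lines mark 2-fold, all proteases lie right of it, and Ptgs2, C5ar1, Cebpa and Spi1 lie left.

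Receptor genes followed, with 13 of 15 measured higher, 1 lower and 1 within 2-fold. But 10 of these 15 were measured only through the members, so those could only stand above expectation. Mrgprb1 had 767 UMIs in members and 10 elsewhere, and Mrgprb2, the receptor for cationic secretagogues, 233 and 4. Mrgprx2 of the same locus had 87 and 0. Fcer1a had 461 and 12, and Ms4a2 337 and 25. The γ chain gene Fcer1g, which macrophages and other myeloid cells also use, was in all 73 members but only 2.10-fold above expectation [1.99, 2.21]. Kit was 364-fold higher [336, 394], Il1rl1, the receptor for the alarmin IL-33, 187-fold [172, 202], and Adora3, an adenosine receptor, 192-fold [166, 222]. C5ar1, the receptor for complement C5a, stood at 0.101 of expectation [0.0329, 0.236].

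Enzymes for histamine, serotonin and steroid and the prostaglandin D2 synthase were high in members, and Ptgs2, an inducible prostaglandin enzyme, was nearly absent. Its relative Ptgs1 stood at 6.23 CPM in members and at 91.9 CPM in barcodes with neutrophil markers, where it was highest. In the mediator list 7 of 9 measured genes were higher and 1 was lower, Gata2 among them, which stands in the transcription factor list as well. Again 7 of the 9 were measured only through the members and could only stand above expectation. Hdc was 88.0-fold higher [83.3, 92.8], Slc18a2, which loads amines into vesicles, 1843-fold [1606, 2104], and Tph1, the enzyme that makes serotonin outside the brain, had 370 UMIs in members and 38 elsewhere. The serotonin transporter gene Slc6a4 had 251 and 29. Cyp11a1 had 552 and 43. Hpgds, prostaglandin D2 synthase, was 10.6-fold higher [9.01, 12.3] and Alox5, the first enzyme of leukotriene synthesis, 14.7-fold [11.9, 18.05]. Alox5ap, its partner, stood at 0.612 of expectation, and Ptgs2 had 1 UMI against 54.2 expected. Ltc4s, which makes leukotriene C4, had 15 UMIs against 16.5 expected, too few to be called.

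Granule machinery was less uniform, with 6 of 13 measured genes higher and 3 lower. Here 4 of the 13 were measured only through the members. Srgn, the serglycin core protein, stood at 5667 CPM in members, 8.75-fold above expectation [8.42, 9.08], and was in 73 of 73. Rab27b, a GTPase of granule release, was 585-fold higher [513, 665]. Serpinb1a, an inhibitor of granule proteases, was 192-fold higher [183, 201], and the heparin-modifying enzymes Hs6st2 and Ndst2 were 54.5-fold and 25.3-fold higher. The general lysosome genes Lamp1 and Ctsb were lower, at 0.330 and 0.0833 of expectation. Of 12 measured transcription factors 7 were higher, led by Meis2 at 173-fold, Gata2 at 136-fold [126, 147] and Tal1 at 51.8-fold. Among the 12, 5 were measured only through the members. Mitf, a factor of mast cells and melanocytes, was 7.17-fold higher [5.68, 8.94]. Spi1, which drives macrophage development, was at 0.352 of expectation and Cebpa at 0.0317. Gata1 had 14 UMIs in 12 members and was below the limit for calling.

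Of the FcεRI and Kit signalling list 11 of 14 measured genes were higher, among them the adaptors Lat (48.5-fold) and Lat2 (9.31-fold) and the kinase Btk (5.40-fold). As many as 8 of the 14 were measured only through the members and could only stand above expectation. The kinases Syk and Lyn were within 2-fold, at 1.27 [0.903, 1.74] and 1.09 [0.857, 1.36]. Spry1, a brake on receptor tyrosine kinases, was lower. Of 13 measured cytokine genes 7 were higher, and 5 of the 13 were measured only through the members and could only stand above expectation. The type 2 cytokines Il4 and Il13 were 1236-fold [985, 1533] and 1016-fold [904, 1137] higher, Tnf was 11.98-fold higher, and the monocyte chemokines Ccl2 and Ccl7 were 5.40-fold and 4.79-fold higher. The 2 chemokines differed by day. On day 1 Ccl2 stood at 2369 CPM in members against 2221 CPM in the other barcodes, and Ccl7 at 1129 against 1626 CPM. On day 0 Ccl2 stood at 4213 against 136 CPM and Ccl7 at 2709 against 95.1 CPM. Day 3 gave 2256 against 331 CPM for Ccl2 and 1829 against 287 CPM for Ccl7. Il1b, Cxcl2 and Ccl3, cytokines of neutrophils and macrophages, were lower, at 0.0321, 0.0278 and 0.0387 of expectation. Il5, Il9 and Il10 had 0 UMIs and were not called.

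The 25 highest genes were taken among those whose log2 ratio passed 2-fold in each day 0 library. They were also found in at least 10% of members, and they brought in some genes that no list of mast cell genes held. Besides Mrgprx2, Cma2 and Slc6a4 they were Krt4, a keratin, Atp8b5, Rgs13, a regulator of G protein signalling, Rprm, Esyt3 and Slc45a3. Krt4 had 58 UMIs in 30 members and 2 elsewhere, Atp8b5 232 in 56 members and 24 elsewhere, and Rgs13 101 in 36 members and 6 elsewhere. Mcpt8 was among the 25 although it had 0 UMIs in day 0 members. Its day 0 log2 ratios, 4.41 at ZT4 and 10.06 at ZT16, came only from the constant added to each count. Esyt3 had the same log2 ratio of 10.06 at ZT16. The day 0 condition therefore does not show that each of the 25 was higher in day 0 members. The 10 lowest were Igfbp5, Aif1, S100a8, C3, Hba-a1, Retnla, Acta2, Cd248, Pcolce2 and Gal, genes of stroma, macrophages, neutrophils, vessel wall and red cells. Their expected counts lay between 52.0 (Gal) and 321 (S100a8) and their observed counts were 0 or 1. All 6 measured MHC class II genes were lower (median log2 -4.14), 0 of 16 ribosomal protein genes passed 2-fold (median log2 -0.35), and the median over all measured genes was log2 -0.0026.

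Members were not alike. Prss34 was found in 32 of 73 and its 5 highest barcodes held 51.7% of its UMIs, with up to 76 in 1 barcode. Ccl7 was absent from 47 members while 19 had 10 or more UMIs and 1 had 170, and Ccl2 was found in 68. Il13 was found in 39 members, with 61.3% of its UMIs in 5 of them. Kit and Hdc were spread more evenly, with 19.2% and 20.3% of UMIs in the 5 highest barcodes.

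Mcpt4 and Cma1 stood in a different balance on each day. Mcpt4 made up 59.7% of the UMIs of the pair on day 0 [58.9, 60.4], 50.4% on day 1 [48.7, 52.1] and 37.1% on day 3 [36.3, 37.9]. The day 0 libraries gave 57.3% (ZT4) and 62.9% (ZT16), those of day 1 gave 49.3% and 50.8%, and those of day 3 gave 35.3% and 37.4%. Both genes helped to choose the barcodes and no other pair of genes was set beside them. The order of the days is therefore a description. Day 1 was less uniform by barcode. In its ZT4 library 1 of 4 barcodes held 314 of the 492 Mcpt4 UMIs, and the median per barcode was 30.6%, against 54.0% in its ZT16 library. The medians were 57.5% and 60.0% in the day 0 libraries and 38.3% and 35.8% in those of day 3, so by barcode days 1 and 3 overlapped. Mcpt4 exceeded Cma1 in 34 of 45 barcodes on day 0, 7 of 12 on day 1 and 1 of 16 on day 3. The level of Mcpt4 was 48000 CPM on day 0, 23539 on day 1 and 23134 on day 3, and that of Cma1 was 32454, 23181 and 39214 CPM. With 4 barcodes described next left out, the day 3 share was 40.1%. Day, animal and library cannot be told apart in this design.

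**Figure D3:**
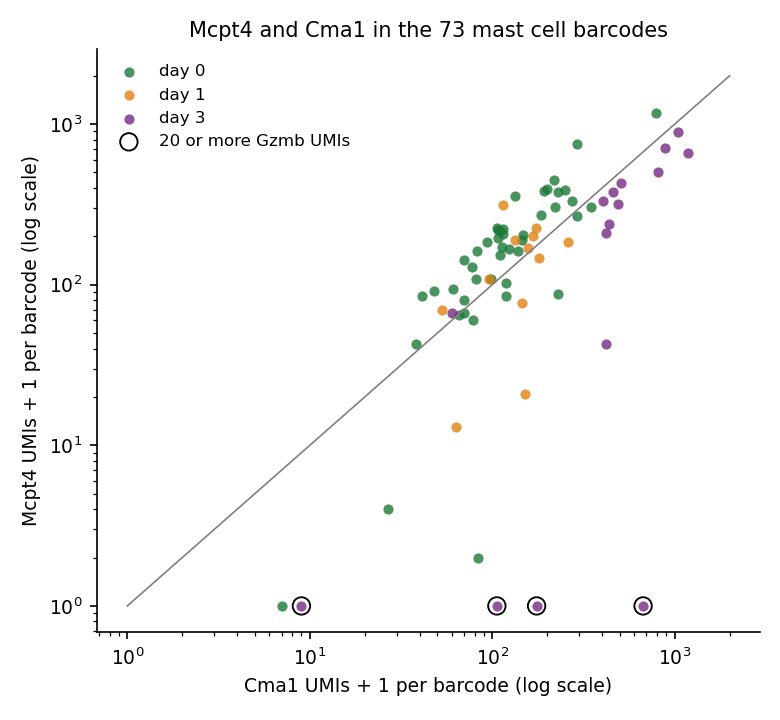
Mcpt4 against Cma1 UMIs, each plus 1 on log axes, in the 73 mast cell barcodes, coloured by day. The grey line marks equal counts, and rings mark the 4 barcodes with 20 or more Gzmb UMIs. Day 0 points lie mostly above the line (34 of 45) and day 3 points below it (1 of 16 above).

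On day 3, 4 of the 16 barcodes held another set of proteases. They had 80, 101, 138 and 173 UMIs of Gzmb, granzyme B, whereas no other member had more than 6. They were singled out after their values were seen, and 1 came from the ZT4 library and 3 from the ZT16 library. They had no UMI of Mcpt4, Mrgprb1, Mrgprb2, Tpsab1 or Tph1, and 3 of the 4 had none of Tpsb2. All 4 had Cma1 (8 to 670 UMIs) and Cpa3 (118 to 358). Mcpt8 stood at 4460 CPM in them against 77.5 CPM in the other 12 day 3 members. Il13 was at 2370 against 28.2 CPM, the chemokine Ccl4 at 2916 against 14.1 CPM, and Plac8, Scin and Nkg7 at 982, 764 and 483 CPM against 0, 0 and 7.04 CPM. Of the other lineage genes, Kit, Hdc, Gata2, Cyp11a1 and Ms4a2 were found in all 4 and Fcer1a in 2. Kit was at 1029 against 979 CPM, Hdc at 1840 against 2360 CPM and Gata2 at 2043 against 1014 CPM. Cyp11a1 was at 702 against 894 CPM. Both FcεRI chain genes were lower, Fcer1a at 172 against 1874 CPM and Ms4a2 at 203 against 916 CPM. One of the 4 held all 255 Mcpt1 UMIs and 209 of the Mcpt8 UMIs. The T cell genes Cd3d, Cd3e, Cd3g and Trac were at 0 in all members, and Plac8 is also a monocyte marker.

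Among members, mitotic genes passed the limit on day 3 alone. With at least 3 UMIs summed over 10 genes such as Mki67 and Top2a, 0 of 45 members counted on day 0 (exact upper limit 7.87%), 0 of 12 on day 1 (26.5%) and 6 of 16 on day 3 (37.5% [15.2, 64.6]). Other barcodes counted at 0.854%, 1.22% and 17.97% on the same days. The 6 had 5 to 80 such UMIs, and 3 of them were Gzmb-bearing barcodes. Depth rose as well, as given above, and its part in the count was not tested.

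Immediate early genes were high in members on every day and highest on day 0. Of 21 measured genes of this list 14 were at least 2-fold above expectation over all libraries, against 18.3% of all measured genes. Among the 14 were Egr3 (13.1-fold), Jun (3.53-fold) and Fos (2.25-fold). Of the 21, 2 were measured only through the members. Btg2, Atf3, Socs3 and Klf4 were lower. Fos stood at 10588 CPM in members on day 0, 3127 on day 1 and 3299 on day 3, and at 4485, 1509 and 1617 CPM in the other barcodes. Jun stood at 9591, 3058 and 3032 CPM in members and at 3160, 370 and 550 CPM in the others. These genes also respond to tissue dissociation, and members and other barcodes shared the fall after day 0. Hspa1a, a heat shock gene, stood at 636 CPM in members on day 0, against 778 CPM in the other barcodes, and 78.3% of its UMIs in day 0 members lay in 2 barcodes.

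**Figure D4:**
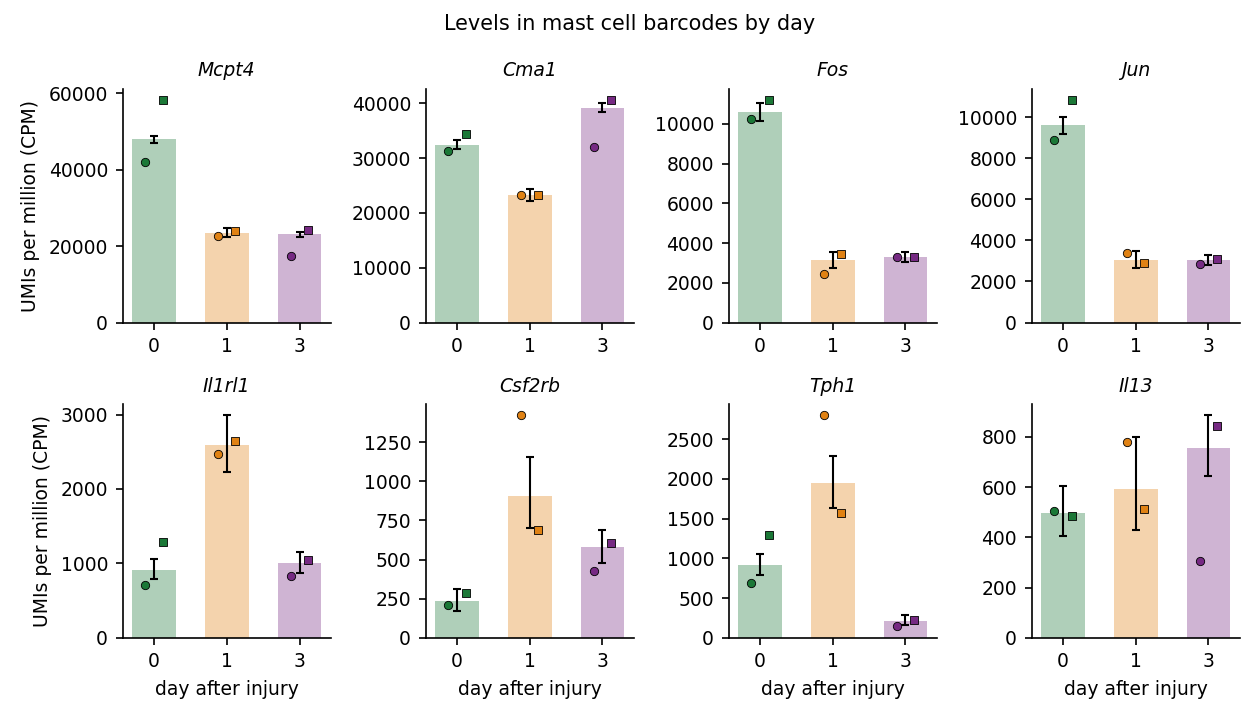
CPM of 8 genes in mast cell barcodes on days 0, 1 and 3. Bars are both libraries of a day pooled with exact 95% counting limits, circles are ZT4 libraries and squares ZT16 libraries, each from 3 to 29 barcodes. Fos and Jun are highest on day 0, Il1rl1, Csf2rb and Tph1 on day 1.

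Il1rl1, Csf2rb and Tph1 stood highest on day 1. Il1rl1 was at 918 CPM on day 0 [791, 1059], 2589 on day 1 [2233, 2987] and 1009 on day 3 [877, 1156]. Both day 1 libraries, at 2476 and 2638 CPM, lay above the other 4, of which the highest was 1284 CPM. Csf2rb, the shared receptor chain for IL-3, IL-5 and GM-CSF, was at 237, 909 and 577 CPM on days 0, 1 and 3. In the other barcodes it was at 11.3, 169 and 69.8 CPM, so it followed the same order there. Tph1 was at 913, 1942 and 213 CPM, and on day 1 both libraries (2797 and 1575 CPM) lay above the rest. Slc6a4 was at 735, 496 and 320 CPM and Il4 at 276, 124 and 87.3 CPM. Kit, Hdc and Gata2 were found in all 28 members of injured muscle. Day 1 rests on 12 barcodes, and the fold between days was not computed because fewer than 50 barcodes stood on each side. The share of all genes with both day 1 libraries above the other 4 is not given here. The order for Il1rl1 and Tph1 is thus a description of these libraries.

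Most lists of other cell types were found in a smaller share of mast cell barcodes than expected, while T and NK genes and the basophil list stood higher. At least 5 UMIs of another list besides mature muscle were found in 15 of 73 members, and at least 20 in 8. Fibro-adipogenic markers were in 4 members (5.48%) against 21.98% expected from the other barcodes, endothelial markers in 3 (4.11%) against 21.96%, and macrophage markers in 3 (4.11%) against 26.4%. For these stromal and vessel lists the direction by gene depended on the barcodes compared. Against other barcodes with a Ptprc UMI only, the median log2 ratio of single genes was 1.52 for the fibro-adipogenic, 1.49 for the endothelial and 0.55 for the mural list, and against all other barcodes it was -2.95, -1.78 and -2.44. T and NK markers were in 5 (6.85%) against 1.42%. These 5 are the 4 Gzmb-bearing barcodes, mainly through Nkg7, and the barcode just inside the threshold. Of the basophil list 7 of 8 measured genes were higher and Ccl3 was lower, with a summed level of 4765 CPM in members against 237 CPM expected. Of its 10 genes 8 also stand in a mast cell list, and the 7 were measured only through the members. Mature muscle genes were in 32 of 45 members on day 0, against 95.7% of the other day 0 barcodes. Whether their RNA lay free in the suspension was not tested. Neutrophil, glial, myogenic, tenocyte and erythroid markers were in 1, 0, 0, 0 and 0 members. The Ptprc level in members was 0.790 of expectation [0.637, 0.968].

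**Figure D5:**
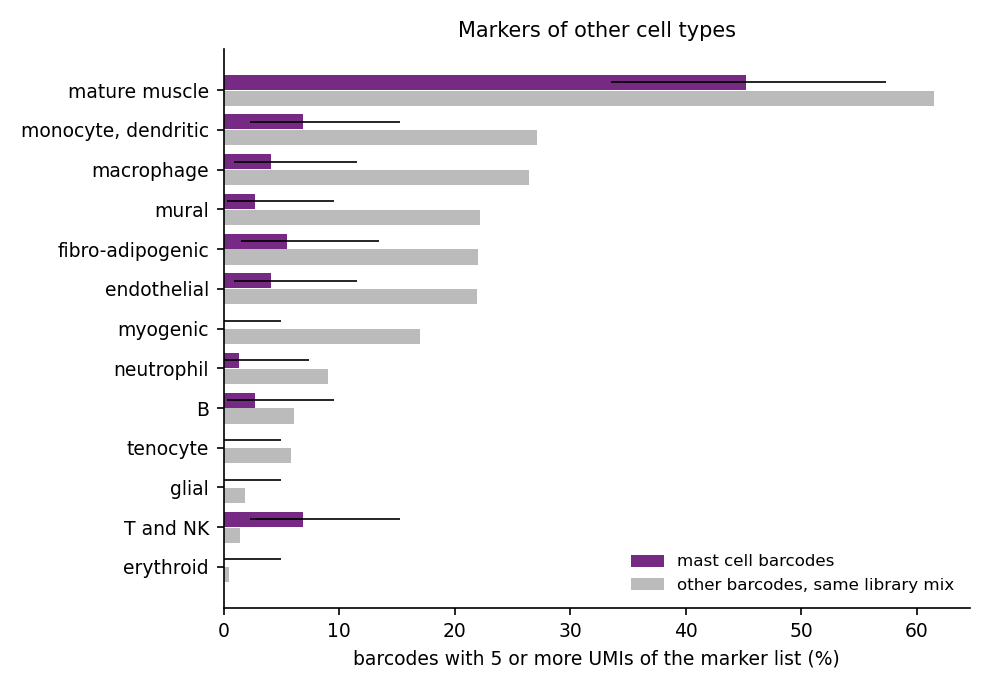
Share of barcodes with at least 5 summed UMIs of each marker list, for the 73 mast cell barcodes (with exact 95% limits) above the share expected from the other barcodes in the same library mix. Members lie lower for every list with an expected share over 2%, and higher for T and NK markers.

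A doublet score would have taken most of the uninjured members. Scored within each library, with 0.8% per 1000 barcodes left out, it marked 47 of 73 members (64.4%) against 8.69% of all kept barcodes. It marked 43 of 45 on day 0, 0 of 12 on day 1 and 4 of 16 on day 3, among them all 3 at ZT4 on day 3. Of the 47, 37 had fewer than 5 UMIs of every other list but mature muscle. The 26 members left had 10.9% of UMIs in the 4 chosen genes, as all 73 did, but came mostly from injured muscle. Before this removal the share was 12.4% in day 0 members and 9.84% in those of injured muscle. Of the members left, 5 had at least 5 UMIs of another list besides mature muscle.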

How the data were processed

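The values are raw UMI counts per gene and barcode, 1 matrix per library, as the authors deposited them, for 32285 genes and 68724 barcodes. Cell Ranger made them, as version 6.1.2 per the file headers and as version 1.0.0, on mm10, per the submitters' processing notes. The kit was version 3.1 per the labels' protocols. The sources used here do not state the annotation release. Positions come from GENCODE vM21 (GRCm38), which holds 32235 of the IDs, and promoters from RefSeq.

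Barcodes were kept by the limits in the opening. Expected UMIs are, summed over libraries, the members' UMI total times the gene's share in the other kept barcodes. A gene was called at 2-fold or more with at least 30 UMIs observed or expected. Limits are exact Poisson, binomial or conditional intervals at 95%. Log2 ratios add 0.5 UMI to each count. The 6 groups hold 1 library each, and no test was run. Doublets were kept; scrublet scores in scanpy 1.11.5 served as an alternative only. Other alternatives were thresholds, depth, thinning, members without other cell types' markers, immune barcodes as comparison and leaving out libraries. The calling step was tested on simulated data.

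The members and the 31 gene lists were chosen with earlier results of these data known. Named genes are those of the mast cell lists, and the 25 highest and 10 lowest by ratio. The highest and lowest had log2 ratios past 2-fold in each day 0 library, which Mcpt8 reached with 0 UMIs in day 0 members. The highest were in at least 10% of members. The rule left out the 4 chosen genes, mitochondrial genes and unnamed gene models. Genes of other lists stand beside their list's count.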

Additional observations from a re-analysis of the deposited data

How the results depend on the processing

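No paired analysis was possible because the groups are 1 library each and share 1 replicate number, and no result comes from a test. Members and other barcodes were set against each other within each library, since expected counts are formed per library. Thresholds of 10 or 20 UMIs each left 72 members. Doublet removal left 26 members, 5 of them with another list's markers, 328 higher and 296 lower genes, and a Mcpt4 share of 70% on day 0, from 2 barcodes, and 39.7% on day 3. Among members free of every other list 324 genes were higher and 317 lower. A minimum of 10 UMIs gave 1143 and 1432, one of 100 UMIs 191 and 205, and thinning 116 each, with 26 mast list genes higher. The chosen genes' share was 12.2% free of every list and, in alternatives added after seeing the data, 13.2% free of all lists but mature muscle and 12.2% without the Gzmb-bearing barcodes. The values by day were also added then. In both of these the day 3 values were 40.1% for Mcpt4 and 4198 CPM for Fos, and in the first Fos was 11313 CPM on day 0.

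Leaving out 1 library at a time gave 10.2% to 11.2% for the chosen genes' share. It gave 431 to 553 higher and 459 to 593 lower genes. Mcpt4 shares were 57.3% to 62.9% on day 0 and 35.3% to 37.4% on day 3, and Fos 10241 to 11192 CPM on day 0 and 2430 to 3426 CPM on day 1. Of 138 named genes past 2-fold, 4 changed sign in 1 alternative each. They were Areg (log2 0.31), Il6 (-0.031) and Rasgrp1 (0.33) when thinned, and Stx11 (-0.080) after doublet removal, all under 30 UMIs. Against other barcodes with Ptprc only, the list medians were log2 1.49 for endothelial, 1.52 for fibro-adipogenic and 0.55 for mural markers, and the fibro-adipogenic median was 1.90 after doublet removal. With under 50 members on either side, no injured over uninjured ratio or alternative to it was computed.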

Other observations

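Genes for factors that act on mast cells were read in the other barcodes. Kitl, which encodes Kit ligand, was highest in barcodes with endothelial markers (394 CPM, 10063 barcodes) and stood at 4.15 CPM in mast cell barcodes. Il33 was highest in barcodes with fibro-adipogenic markers (118 CPM, 9234 barcodes), against 4.15 CPM in mast cell barcodes. Tslp was highest in the same barcodes at 25.03 CPM and had 0 UMIs in mast cell barcodes. Tnf stood at 636 CPM in mast cell barcodes and 463 CPM in those with neutrophil markers, and Ccl2 at 3097 CPM against 1483 CPM in those with macrophage markers. A barcode can pass several marker lists, so these classes overlap.

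Clock genes were too shallow in mast cell barcodes to be read. Of 18 genes on that list 1 reached 30 UMIs observed or expected, Bhlhe40, with 29 UMIs against 35.1 expected. Per1 had 26 UMIs, Dbp 10 and Nr1d1 4 over all 73 barcodes.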
